A study of Mus musculus with 2 samples.

Results

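The genes described are 10 members of the cellular stress and activation response, namely the immediate early genes *Fos*, *Fosb*, *Jun*, *Junb*, *Egr1*, *Ier2*, *Atf3* and *Dusp1*, and the inducible heat shock genes *Hspa1a* and *Hspa1b*. They were chosen by name, not by their values, from the 31053 genes of the count tables, and all 10 were found and had UMIs in both libraries. The data are single cell counts from eye cups of mouse embryos at e13.5, without cornea, lens and optic nerve. The control library pooled 3 *Myrf* fl/fl samples, and the mutant library pooled 3 *Rx > cre Myrf* fl/fl samples, so both groups carry the floxed *Myrf* allele and only the mutant carries the *Rx > cre* transgene, which drives Cre in the early eye field from which retina and RPE arise. Eye cups of both genotypes were dissociated with papain under warming before droplet capture. With 1 pooled library per genotype there was no replicate and no test was possible. Every interval given is a 95% interval for counting error only, and it does not cover differences between embryos or preparations.

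Immediate early genes are transcribed within minutes of a stimulus, without new protein synthesis, from signals that reach serum response factor, CREB and their partners. FOS and JUN family proteins pair to form the transcription factor AP-1, ATF3 joins or competes with these pairs, EGR1 is a zinc finger factor of the same wave, IER2 is a short-lived nuclear protein, and DUSP1 is a phosphatase that switches the upstream MAP kinases off again. HSPA1A and HSPA1B are near-identical inducible chaperones of the HSP70 family that heat shock factor 1 switches on when proteins misfold. Both gene groups are known to respond to tissue handling as well as to events in the living tissue.

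The libraries held 6039 control and 6754 mutant barcodes with 63483835 and 75228861 UMIs (unique molecular identifiers, 1 per captured transcript). After removal of barcodes with under 200 genes, over 15% mitochondrial UMIs or a doublet call, 5468 control and 6300 mutant cells were kept, with medians of 11332 and 11154 UMIs per cell. Clustering of both libraries together gave 30 clusters, from which 14 cell classes with at least 20 cells in each library were named "X-like" from their markers. The 5 unnamed clusters held 22.2% of control and 18.1% of mutant cells. The RPE-like class was led by *Ttr*, *Pmel*, *Trpm1* and *Tyrp1* and held 252 control and 152 mutant cells. The macrophage-like class was led by *C1qb*, *C1qc*, *C1qa* and *Lyz2*, and *S100a8*, *S100a9* and *Cpa3*, which are known from neutrophils and mast cells, were also among its leading genes. *Myrf*, the gene targeted in the mutant, had 155 UMIs in control RPE-like cells (74.8 CPM) and 30 in mutant RPE-like cells (20.1 CPM). A level in CPM is the number of UMIs of the gene per 1000000 UMIs of the same cells. The kit counts 3' ends, so a level does not scale with transcript length.

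The libraries shared 72 barcodes, of which 67 were kept in both. Of these, 57 fell in 1 unnamed cluster of 60 control and 63 mutant cells, in which several of the 10 genes stood far above their level elsewhere. That cluster is described on its own below, and the comparison over all kept cells is given with and without it.

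The genes lie on 7 chromosomes of GRCm38, the assembly also called mm10. *Fos* lies at chr12:85473890-85477273 (plus strand, 4 exons in its longest transcript) and *Jun* at chr4:95049034-95052222 (minus strand, 1 exon). *Hspa1a* at chr17:34969190-34972156 and *Hspa1b* at chr17:34956436-34959238 are single-exon neighbours on the minus strand. RefSeq promoter windows (GRCm38.p6) were found for 8 of the 10 genes, not for *Egr1* and *Ier2*. The 150 bases before the start of 5 of them are printed to show the short elements through which stress signals reach such genes and how alike the heat shock pair is. Capitals mark matches to the cyclic AMP response element (letters TGACGTCA), the core of a heat shock element (letters GAANNTTC), the TATA box (letters TATAAA) and the CCAAT box or its reverse complement.

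Fos: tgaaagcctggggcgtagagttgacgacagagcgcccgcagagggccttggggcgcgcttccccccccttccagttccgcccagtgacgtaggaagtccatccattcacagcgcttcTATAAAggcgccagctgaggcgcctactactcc
Jun: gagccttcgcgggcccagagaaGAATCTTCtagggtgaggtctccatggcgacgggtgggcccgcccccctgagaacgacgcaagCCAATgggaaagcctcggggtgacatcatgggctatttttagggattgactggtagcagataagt
Dusp1: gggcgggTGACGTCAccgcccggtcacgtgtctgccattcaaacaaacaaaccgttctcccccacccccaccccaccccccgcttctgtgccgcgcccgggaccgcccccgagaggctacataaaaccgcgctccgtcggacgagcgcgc
Hspa1a: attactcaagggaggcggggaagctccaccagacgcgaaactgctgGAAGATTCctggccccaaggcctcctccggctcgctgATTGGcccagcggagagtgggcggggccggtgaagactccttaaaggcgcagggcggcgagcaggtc
Hspa1b: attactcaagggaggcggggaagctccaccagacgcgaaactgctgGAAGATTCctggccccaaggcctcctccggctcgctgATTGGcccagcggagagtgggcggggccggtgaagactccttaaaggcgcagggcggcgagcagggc

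These windows are chr12:85473740-85473889 (plus strand) for *Fos*, chr4:95052223-95052372 (minus) for *Jun*, chr17:26508473-26508622 (minus) for *Dusp1*, chr17:34972157-34972306 (minus) for *Hspa1a* and chr17:34959239-34959388 (minus) for *Hspa1b*. Motifs were searched on both strands in the 250 bases before each start, and marked matches to different motifs did not overlap in the printed windows. The heat shock element core was found in *Hspa1a*, *Hspa1b* and *Jun*, against 6.69% of 32851 promoters of all genes. In both heat shock genes it lies 104 to 97 bases before the start. The full cyclic AMP response element was found in *Dusp1* alone, against 1.55% of all promoters. Its shorter part TGACG, not marked in the printed windows, was found in 5 of the 8 genes, against 17.8% of all promoters. These were *Atf3*, *Dusp1*, *Fos*, *Fosb* and *Junb*. The TATA box letters were found in *Fos* (12.4% of all promoters), and the CCAAT box in *Hspa1a*, *Hspa1b*, *Jun* and *Junb* (33.8%). No window of the 8 held the AP-1 site TGANTCA (6.75% of all promoters) or the CArG box (1.47%). Sites further than 250 bases before the start were not searched. A match is a description of letters and not a bound site. The *Hspa1a* and *Hspa1b* windows were identical at 247 of 250 bases. Their longest transcripts matched at 90.7% of 2797 aligned bases, but only at 62.2% of 267 aligned bases in the last 300, the end that the kit reads. Reads that do not reach these differing bases could have been assigned to either gene or to neither, so the sum of both genes is given beside each, and differences between them are uncertain.

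The sum of the 8 immediate early genes was highest in macrophage-like cells, with 1105 CPM (1983 UMIs in 125 cells) in the control and 1082 CPM (1923 UMIs in 136 cells) in the mutant library. It was lowest in RPE-like cells in the control (74.8 CPM) and in red blood cell-like cells in the mutant (87.1 CPM), so the classes spanned 14.8 fold and 12.4 fold. The medians over the 14 classes were 320 and 331 CPM. By the counting intervals in both libraries, 3 steps of the order held: the macrophage-like class over the next, the Schwann or neural crest-like class (449 and 610 CPM), the amacrine or horizontal cell-like class (317 and 313 CPM) over the retinal progenitor-like class (249 and 210 CPM), and the muscle precursor-like class (178 and 165 CPM) over the RPE-like class. Other neighbours in the order, such as periocular mesenchyme-like cells (436 and 454 CPM) and ganglion cell-like cells (449 and 419 CPM), could not be ranked. Over all genes with enough UMIs, a range over classes of at least 4 fold in both libraries was common, with 56.2% of 10534 genes, and 8 of the 9 genes tested here had one. *Atf3* did not, and *Fosb* had too few UMIs to be tested.

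**Figure D1:**
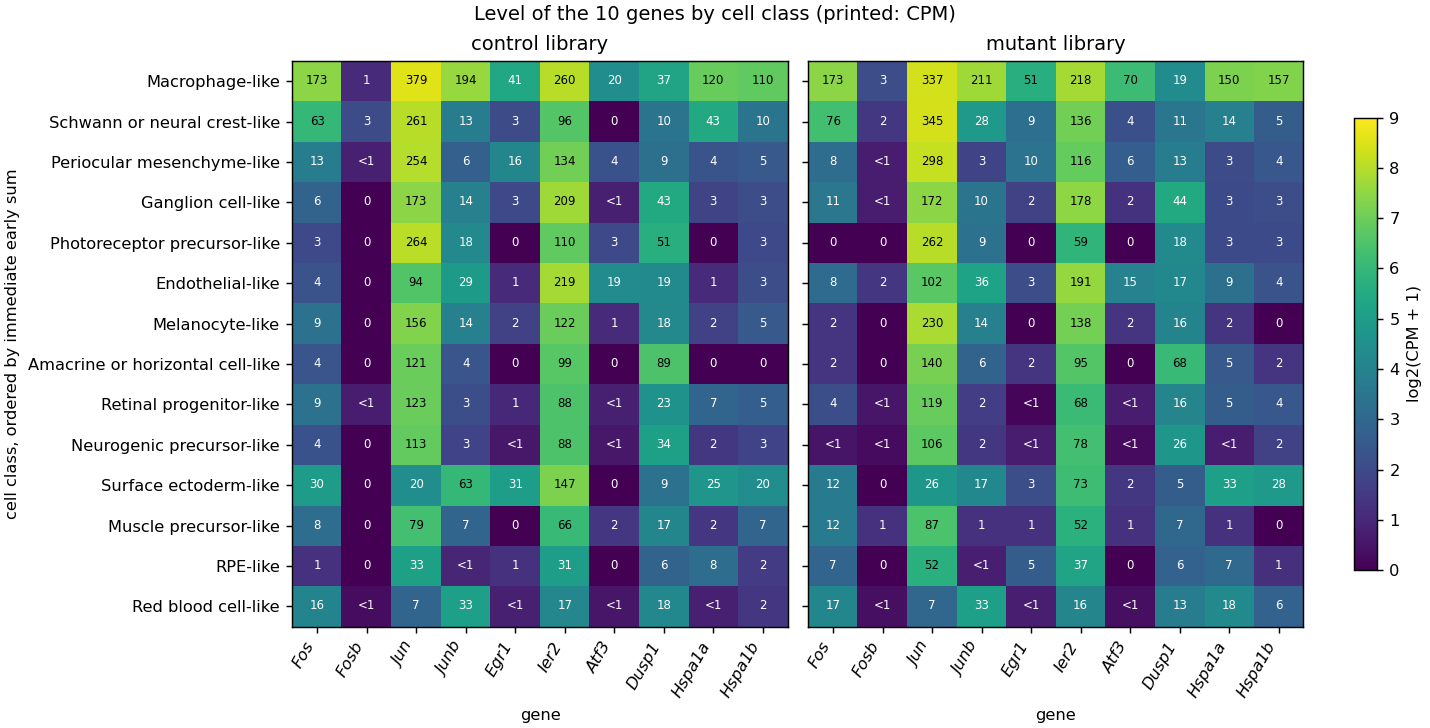
Level of each of the 10 genes (columns) in each of the 14 named cell classes (rows, ordered by the immediate early sum), control library on the left and mutant library on the right. Colour is log2(CPM + 1) and the printed number is CPM. The macrophage-like row is the brightest in both libraries, *Jun* and *Ier2* are seen in every row, and the RPE-like row is dark for *Fos*, *Fosb*, *Junb*, *Egr1* and *Atf3*.

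Of the AP-1 subunits, *Fos* had 173 CPM in macrophage-like cells of both libraries (311 and 307 UMIs). It had 62.8 and 76.0 CPM in Schwann or neural crest-like cells. In periocular mesenchyme-like cells it had 12.9 and 8.40 CPM, in retinal progenitor-like cells 9.33 and 3.51 CPM, and in RPE-like cells 3 and 10 UMIs in all (1.45 and 6.70 CPM). *Fosb*, its close relative, was hardly detected, with 46 and 55 UMIs over all kept cells. *Junb* followed *Fos* in macrophage-like cells (194 and 211 CPM) but was also found in red blood cell-like cells at 33.1 CPM in both libraries. In RPE-like cells *Junb* had 2 and 1 UMIs. The class pattern of *Jun* was another one: it was high in macrophage-like (379 and 337 CPM), Schwann or neural crest-like (261 and 345 CPM), photoreceptor precursor-like (264 and 262 CPM) and periocular mesenchyme-like cells (254 and 298 CPM), and low in RPE-like (33.3 and 51.6 CPM), surface ectoderm-like (20.3 and 26.2 CPM) and red blood cell-like cells (6.63 and 6.83 CPM). Over the 28 points of 14 classes in 2 libraries, the levels of *Fos* and *Jun* had a Pearson's r of 0.25, those of *Fos* and *Egr1* 0.80, those of *Jun* and *Ier2* 0.69, and those of *Fos* and *Hspa1a* 0.87. These points share 2 libraries, and the macrophage-like class has much weight in each value.

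*Egr1* was found mainly in macrophage-like cells (40.7 and 50.7 CPM), in periocular mesenchyme-like cells (16.5 and 9.70 CPM) and, in the control only at a like level, in surface ectoderm-like cells (31.3 CPM from 20 UMIs against 3.50 CPM from 2 UMIs in the mutant). *Ier2* was detected in every class, from 17.0 and 16.2 CPM in red blood cell-like cells to 260 and 218 CPM in macrophage-like cells, with endothelial-like cells close to the top (220 and 191 CPM). *Atf3* was high in 2 classes, the macrophage-like (20.1 and 70.4 CPM) and the endothelial-like (19.4 and 14.99 CPM). In RPE-like cells it had 0 UMIs in each library, for upper limits of 1.45 CPM (control) and 2.01 CPM (mutant). *Dusp1*, the phosphatase that ends MAP kinase signalling, had an order of its own. It was highest in amacrine or horizontal cell-like cells (88.9 and 68.3 CPM), followed by ganglion cell-like (43.2 and 43.5 CPM), photoreceptor precursor-like (50.5 and 18.5 CPM) and neurogenic precursor-like cells (33.6 and 26.2 CPM), all neurons or their precursors. Macrophage-like cells had 37.3 and 19.1 CPM.

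The heat shock pair was concentrated in macrophage-like cells, where *Hspa1a* had 120 and 150 CPM and *Hspa1b* 110 and 157 CPM. Their sum, 230 and 307 CPM, was above every other class in both libraries by the intervals. Surface ectoderm-like cells came next (45.4 and 61.2 CPM), a class in which the small heat shock gene *Hspb1* was also among the leading genes. RPE-like cells had 10.1 and 8.70 CPM (21 and 13 UMIs), and their ratios to retinal progenitor-like and periocular mesenchyme-like cells had intervals spanning 0 in both libraries. The class patterns of *Hspa1a* and *Hspa1b* had a Pearson's r of 0.92 over the same 28 points.

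The 5 genes whose class pattern was most like the mean of the immediate early genes, among 10525 compared over these 28 points, were *Rgs10*, *Laptm5*, *Lst1*, *Gpsm3* and *Cx3cr1*, with r from 0.846 to 0.887. For the heat shock pair they were *Ptpn6*, *Apoc1*, *Plac8*, *Ifitm1* and *Irf8*, with r from 0.902 to 0.934. Several of these are textbook genes of macrophages and other blood leukocytes.

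Red blood cell-like cells gave a measure of free RNA. The markers of retinal progenitors reached 2.27% (control) and 3.76% (mutant) of their level in other cells there. *Jun* stood near that, at 3.69% and 3.38%, and the immediate early sum at 24.5% and 23.8%. *Fos*, at 75.8% and 100%, *Dusp1*, at 92.0% and 78.6%, and *Junb*, at 215% and 278%, were not at the level of the retinal markers.

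Between classes of the eye itself, the immediate early sum was higher in periocular mesenchyme-like than in retinal progenitor-like cells, with log2 ratios of 0.81 (0.76 to 0.86, control) and 1.11 (1.06 to 1.16, mutant). RPE-like cells were below retinal progenitor-like cells by 1.73 (ratio -1.73, interval -1.98 to -1.50) and 0.96 (-0.96, -1.21 to -0.74). *Jun* carried much of this, with log2 ratios of 1.05 and 1.33 for mesenchyme over progenitors. Without *Jun* and *Ier2* the ratios of the sum were 0.34 and 0.79. RPE-like cells were also shallower, with medians of 3956 and 4056.5 UMIs against 14189 and 12874 in retinal progenitor-like cells. A shallow cluster of retinal progenitor-like cells, given under other observations, had a sum nearer to that of RPE-like cells than to that of its own class. The part of depth in the RPE-like level was not tested.

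The cluster with shared barcodes was made of barcodes with few UMIs. Its medians were 1108 and 1081 UMIs, 515 and 496 genes, and 0.910% and 0.943% mitochondrial UMIs per cell, against 4.17% and 4.20% in all kept cells. It took 1.10% of control and 1.00% of mutant cells and 0.143% and 0.118% of UMIs. Of its cells, 57 in each library carried a barcode that was also in the other library. The UMI totals of these 57 pairs were nearly equal: mutant over control, the ratio ran from 0.870 to 1.27 with a median of 0.942. The profiles of the pairs had a median Pearson's r of 0.895 over genes, a value in which abundant genes weigh most. Of the genes detected in either member of a pair, a median of 31.6% were detected in both. The 10 other shared barcodes had ratios from 0.087 to 28.8, a median r of 0.736 and a median of 26.3% of genes in both. Unpaired cells of the cluster were not compared in this way. Nothing in the labels ties the barcodes of the libraries together, and the origin of the pairs was not tested. The cluster cannot be counted as 2 independent samples.

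In these cells *Fos* had 3315 CPM (292 UMIs) in the control and 3705 CPM (320 UMIs) in the mutant library, against 15.6 and 12.2 CPM in all other kept cells. The cluster thus held 23.4% and 26.4% of all *Fos* UMIs. *Jun* had 2316 and 2154 CPM, *Junb* 795 and 868 CPM, *Egr1* 726 and 625 CPM, *Atf3* 204 and 266 CPM, and *Fosb* 193 and 139 CPM, which was 37.0% and 21.8% of all *Fosb* UMIs. Not all members were high there. *Ier2*, found in every named class, had 1 and 0 UMIs. *Dusp1* had 5 and 4 UMIs, and *Hspa1a* 0 and 1 UMIs beside 14 and 7 of *Hspa1b*. Of related genes, the orphan receptor gene *Nr4a2* had 590 and 486 CPM (3.14 and 3.22 CPM in the other cells), *Klf4* 851 and 753 CPM and *Cyr61* 636 and 730 CPM. The constitutive chaperone gene *Hspa8* was lower than elsewhere, with 341 and 255 CPM against 1636 and 1545 CPM. The cluster was led by *Cxcl14*, *Gm11361*, *S100a6*, *S100a4*, *Gm9844*, *Mt2*, *Fos*, *Gm10036*, *Rpl9-ps6* and *Rps12-ps3*. The 10 genes were kept out of the variable features, and the cluster was picked by its shared barcodes. It was described after its levels had been seen, so its level of *Fos* is a description and not a comparison.

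In single cells, thinned to 3000 UMIs each to set aside depth (4143 control and 4997 mutant cells deep enough), 50.1% and 50.5% had no UMI of any of the 10 genes. *Fos* was found in 2.44% and 2.22% of cells. In the macrophage-like class it was found in 21.8% (13.2% to 32.6%) of 78 cells and 27.2% (17.9% to 38.2%) of 81 cells, against 4.49% and 5.33% in red blood cell-like cells and 0.763% and 1.25% in RPE-like cells (1 cell each). *Jun* was found in 45.4% and 48.2% of periocular mesenchyme-like cells, 24.4% and 24.3% of retinal progenitor-like cells, 8.40% and 10.0% of RPE-like cells and 2.25% and 1.94% of red blood cell-like cells. The thinning left out as too shallow 121 of the 252 RPE-like cells of the control and 72 of the 152 of the mutant.

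Several immediate early genes were found in the same cells. Of cells with a *Fos* UMI, 22.8% (15.02% to 32.2%) of control and 21.6% (14.4% to 30.4%) of mutant ones had a *Junb* UMI, against 2.00% and 1.596% of cells without *Fos*. For *Egr1* the shares were 16.8% and 18.9% against 1.90% and 1.08%, and for *Jun* 58.4% and 58.6% against 30.1% and 30.9%. *Dusp1* had 10.9% and 9.01% against 4.28% and 4.48%, with intervals that overlapped in the mutant. These shares are over all classes, of which the macrophage-like had the highest levels. Within periocular mesenchyme-like cells alone, *Egr1* was found in 22.6% (9.59% to 41.1%) of the 31 control cells and 23.7% (11.4% to 40.2%) of the 38 mutant cells with *Fos*, against 3.42% and 1.79% of the others.

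**Figure D2:**
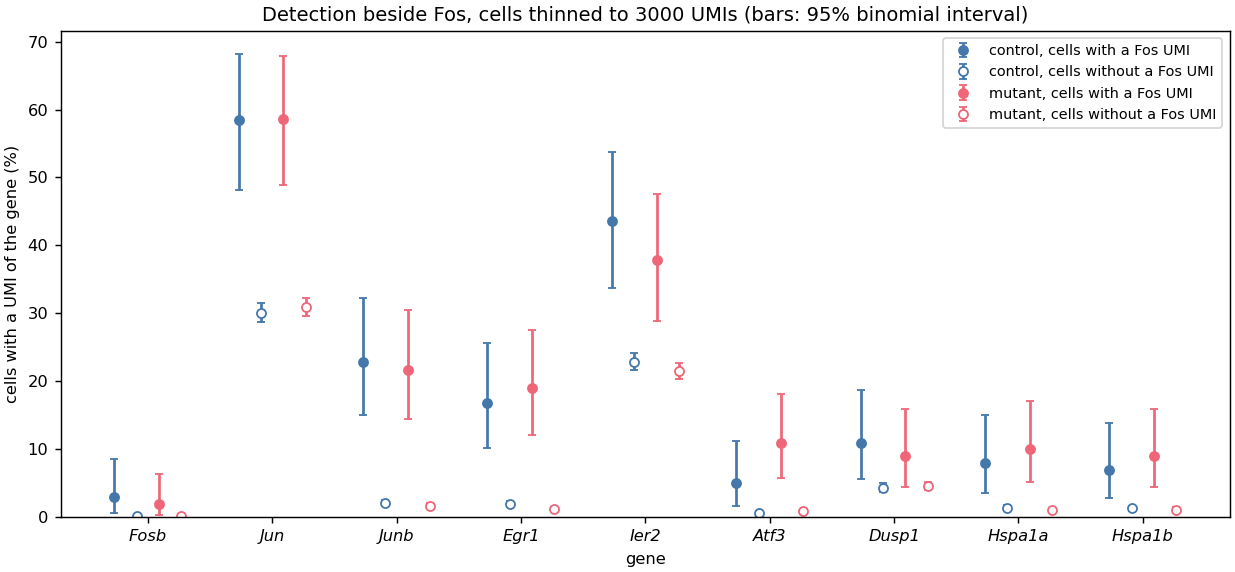
Share of cells with a UMI of each other gene (y axis, percent) among cells with (filled) and without (open) a *Fos* UMI, for the control and mutant library, after thinning to 3000 UMIs per cell. Bars are exact 95% binomial intervals over cells. *Jun*, *Junb*, *Egr1* and *Ier2* were found more often beside *Fos* in both libraries.

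At least 4 of the 8 immediate early genes were found in 0.821% of control (34 cells) and 0.600% of mutant cells (30 cells) at this depth, and in 5.71% and 4.17% of cells before thinning. Macrophage-like cells had 8.97% (7 of 78) and 16.0% (13 of 81). No thinned RPE-like cell did, 0 of 131 and 0 of 80, which allows shares up to 2.29% and 3.75%. The UMIs were also unevenly spread. The 1% of cells with the most *Fos* UMIs held 55.6% and 56.9% of them (56.6% and 57.0% without the cluster of shared barcodes), and for *Hspa1a* they held 68.0% and 77.4%, while for *Jun* they held 11.2% and 10.5% and for *Ier2* 13.7% and 11.7%. Within periocular mesenchyme-like cells at equal depth, the variance of *Jun* over its mean was 1.74 and 2.15, and that of *Fos* 2.07 and 1.47, against a median of 1.01 over all genes and a 95th percentile of 1.24 and 1.23. *Dusp1*, at 1.15 in both libraries, was under that percentile.

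Mutant and control were compared over all kept cells first. *Fos* had 20.3 CPM (control) and 16.6 CPM (mutant), a log2 ratio of -0.29 (interval -0.41 to -0.18), and 15.6 and 12.2 CPM (-0.35) without the cluster of shared barcodes. *Egr1* had 10.7 and 6.90 CPM (-0.63, -0.80 to -0.46), and -0.64 without that cluster. *Ier2* had 115 and 91.9 CPM (-0.32, -0.37 to -0.27), *Junb* 16.6 and 14.8 CPM (-0.16), and *Dusp1* 18.9 and 16.2 CPM (-0.22). *Atf3* was higher in the mutant, with 3.20 and 4.67 CPM (0.54, 0.29 to 0.80), as was *Jun* by a small margin, with 168 and 175 CPM (0.06, 0.02 to 0.10). *Fosb* had 0.747 and 0.751 CPM, and without the cluster 0.472 and 0.587 CPM. *Hspa1a* had 8.38 and 9.84 CPM (0.23, 0.07 to 0.40) and *Hspa1b* 8.24 and 8.17 CPM (-0.01, -0.18 to 0.16). Without the cluster the log2 ratios were -0.32 for *Ier2*, -0.17 for *Junb*, -0.22 for *Dusp1*, 0.58 for *Atf3*, 0.07 for *Jun*, 0.23 for *Hspa1a* and 0.01 for *Hspa1b*. A single mutant cell held 39 of the 342 *Atf3* UMIs, and without the top cell of each library its ratio was 0.50 (0.24 to 0.78). For *Hspa1b*, 89 of 599 mutant UMIs were in 1 cell, and the ratio without the top cells was -0.15 (-0.34 to 0.03).

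The immediate early sum had 353 CPM (control) and 327 CPM (mutant), a log2 ratio of -0.11 (-0.14 to -0.09), which was also -0.11 without the cluster. The heat shock sum had 16.6 and 18.0 CPM (0.12, -0.00 to 0.23), and without the cluster its interval was 0.01 to 0.25. The median log2 ratio of all 16080 genes with at least 20 UMIs was itself -0.13, and haemoglobin took 5.99% of control and 11.6% of mutant UMIs. Relative to that median the immediate early sum stood at 0.02, the heat shock sum at 0.25, *Egr1* at -0.49, *Fos* at -0.16, *Ier2* at -0.19, *Jun* at 0.19 and *Atf3* at 0.67, and 5 of the 10 genes were above it. Past 1.5 fold, 0 of the 10 genes were higher (2.03% of all genes were) and 1, *Egr1*, was lower (5.5% of all genes).

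In RPE-like cells, where *Myrf* itself was lower in the mutant, the immediate early genes were scarce. The sum had 155 UMIs (74.8 CPM, 252 control cells) and 160 UMIs (107 CPM, 152 mutant cells), a log2 ratio of 0.52 (0.19 to 0.85). *Jun* had 33.3 and 51.6 CPM (69 and 77 UMIs, log2 ratio 0.63, 0.14 to 1.12), *Ier2* 31.4 and 36.8 CPM (0.24, -0.31 to 0.77) and *Dusp1* 6.28 and 6.03 CPM. *Fos* had 3 and 10 UMIs (1.93, 0.25 to 4.71) and *Egr1* 3 and 8 UMIs (1.64, -0.17 to 4.44). Of the 4 genes with at least 20 UMIs, 1 was past 1.5 fold higher, *Jun*, against 6.6% of all genes in this class, and 0 were past it lower, against 10.7%. *Hspa1a* had 17 and 11 UMIs (8.21 and 7.37 CPM) and *Hspa1b* 4 and 2, and the heat shock sum had a log2 ratio of -0.18 (-1.34 to 0.85).

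The RPE-like difference rested on few cells. A single mutant cell, with 28098 UMIs and 5.27% mitochondrial UMIs, held 38 of the 160 immediate early UMIs. Without the cell with the most such UMIs in each library, the log2 ratio was 0.27 (-0.09 to 0.63). The ratio also depended on the mitochondrial share. In RPE-like cells with at most 5% mitochondrial UMIs the sum had 115 CPM (104 control cells) and 64.2 CPM (86 mutant cells), with a log2 ratio of -0.83 (-1.40 to -0.28). In those with over 5% it had 60.1 CPM (148 control cells) and 154 CPM (66 mutant cells), with a log2 ratio of 1.35 (0.94 to 1.77). The mutant cell with 38 immediate early UMIs, at 5.27% mitochondrial UMIs, was among these 66, so the 2 limits are not separate. The split was not repeated without that cell. Over all kept cells the same split gave -0.27 (-0.30 to -0.24) and 0.37 (0.31 to 0.43). The part of the mitochondrial share in the result was not tested.

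In periocular mesenchyme-like cells, the class with the most cells (1389 and 1832), the members went different ways. *Jun* was higher in the mutant, with 254 and 298 CPM (0.23, 0.18 to 0.28), as were *Dusp1*, with 9.11 and 13.1 CPM (0.52, 0.25 to 0.79), and *Atf3*, with 3.82 and 5.503 CPM (0.52, 0.11 to 0.95). *Fos* (-0.62, -0.90 to -0.35), *Junb* (5.80 and 2.61 CPM, -1.14, -1.62 to -0.70) and *Egr1* (-0.76, -1.01 to -0.52) were lower, and *Ier2* was lower by a smaller margin (-0.20). Of the 10 genes, 0 were past 1.5 fold higher (2.07% of all genes in this class) and 3 past it lower, *Fos*, *Junb* and *Egr1* (3.45%). The sum, in which *Jun* weighs most, had 436 and 454 CPM (0.06, 0.02 to 0.10), while without *Jun* and *Ier2* it had 48.9 and 39.9 CPM (-0.29, -0.42 to -0.16). Split by mitochondrial share, the full sum had -0.04 (-0.09 to 0.01) at 5% or less and 0.12 (0.05 to 0.19) over 5%. On both sides of the split *Fos* (-0.78 and -0.56) and *Ier2* (-0.27 and -0.19) were lower. *Jun* (0.11 and 0.32) was higher on both.

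In retinal progenitor-like cells (1261 and 1321 cells), which like the RPE descend from the eye field, the immediate early sum had 249 and 210 CPM (-0.24, -0.31 to -0.18). *Fos* had 167 and 61 UMIs (9.33 and 3.51 CPM, -1.40, -1.86 to -0.98), *Junb* 62 and 37 UMIs (-0.69) and *Egr1* 19 and 2 UMIs (-2.69, -6.35 to -1.15). *Ier2* (-0.36, -0.47 to -0.25) and *Dusp1* (23.3 and 16.2 CPM, -0.52, -0.75 to -0.30) were lower by less, and *Jun* had 123 and 119 CPM. Here, as in RPE-like cells, the ratio of the sum turned with the mitochondrial share. It was -0.29 (-0.36 to -0.23) in cells with at most 5% mitochondrial UMIs. In those with over 5% (273 and 263 cells) it was 0.34 (0.12 to 0.56). In the same order *Fos* had -1.50 (-1.99 to -1.06) and 0.12 (-1.65 to 2.00), and *Jun* -0.11 and 0.72. Of 9 genes with at least 20 UMIs, 0 were past 1.5 fold higher (1.92% of all genes) and 3 past it lower, again *Fos*, *Junb* and *Egr1* (3.31%).

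Over the 14 named classes, the immediate early sum was higher in the mutant in 4, all with an interval above 0: RPE-like (0.52), Schwann or neural crest-like (0.43), melanocyte-like (0.31) and periocular mesenchyme-like cells (0.06). It was lower by the interval in 4, the surface ectoderm-like (300 and 140 CPM, -1.09, -1.50 to -0.72), photoreceptor precursor-like (-0.36), retinal progenitor-like (-0.24) and neurogenic precursor-like cells (-0.19). By gene, *Ier2* had an interval below 0 in 6 classes and above 0 in none, whereas *Jun* had it above 0 in 4 classes and below in 1. In macrophage-like cells the sum was close to equal (-0.03, -0.12 to 0.06), while *Atf3* had 36 and 125 UMIs (1.78, 1.27 to 2.39), 39 of the 125 in 1 cell and a ratio of 1.57 (0.98 to 2.26) without the top cells, and *Dusp1* 67 and 34 UMIs (-0.94, -1.605 to -0.35). Without the top cell of each library the count of intervals above 0 was 3 and that below 0 was 4, the RPE-like class being the one lost.

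**Figure D3:**
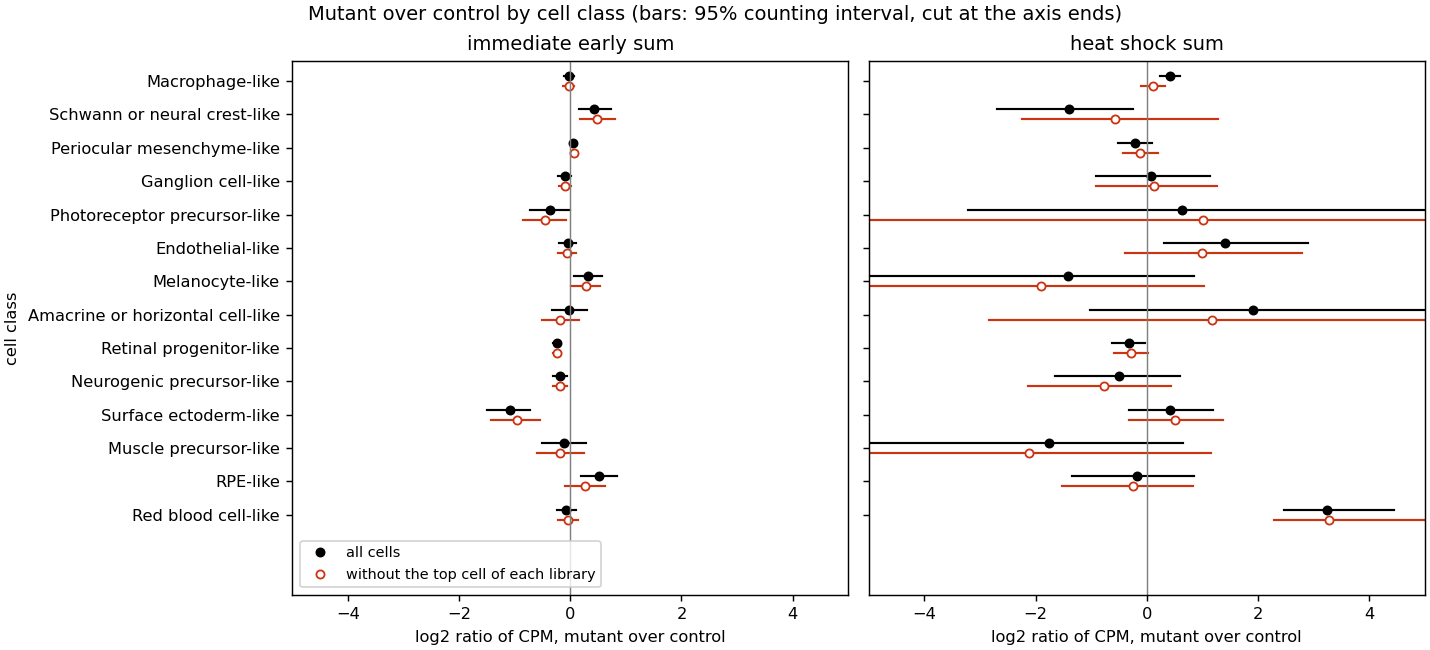
Log2 ratio of CPM, mutant over control, of the immediate early sum (left) and the heat shock sum (right) in each of the 14 named classes. Bars are 95% counting intervals, cut at the axis ends. Black points use all cells and open red points leave out the cell with the most UMIs of the sum in each library, which moves the RPE-like point on the left from 0.52 to 0.27 and the macrophage-like point on the right from 0.42 to 0.12.

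The heat shock sum had an interval above 0 in 3 classes and below 0 in 2. It was far higher in mutant red blood cell-like cells, with 10 UMIs in the control (2.37 CPM) and 251 in the mutant (24.5 CPM, log2 ratio 3.24, 2.47 to 4.45). Of those 251 UMIs, 109 were in 1 cell, and the ratio without the top cell of each library was 3.29 (2.28 to 5.19). In macrophage-like cells the sum had 412 and 545 UMIs (0.42, 0.23 to 0.61), 174 of the 545 in 1 cell, and without the top cells the ratio was 0.12 (-0.10 to 0.33). Endothelial-like (1.42), retinal progenitor-like (-0.32) and Schwann or neural crest-like cells (-1.41) likewise had intervals spanning 0 once the top cells were left out. The red blood cell-like class was the only one of the 5 whose interval then excluded 0. Only 1 cell per library was left out, however. Of the red blood cell-like cells, 5 of 488 in the mutant and 0 of 208 in the control had at least 10 UMIs of the pair, so the mutant value rests on few cells.

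Cells with at least 10 UMIs of the heat shock pair numbered 18 (control) and 17 (mutant) and held 42.2% and 53.1% of all its UMIs. In the control 13 of the 18 were macrophage-like and 0 red blood cell-like, and in the mutant 11 of the 17 were macrophage-like and 5 red blood cell-like. Within the macrophage-like class these cells were deep, with medians of 36750 and 36156 UMIs against 4098 and 4250 in the others. Another 13 heat shock genes were compared between these cells and the other macrophage-like cells. Of them, 8 in the control and 5 in the mutant had an interval above 0, and 0 had one below 0. The share of all genes with such an interval was not computed. The 5 of the mutant were *Hsp90aa1*, *Hsp90ab1*, *Hspd1*, *Hspe1* and the co-chaperone gene *Dnajb1*. *Dnajb1* had 107 CPM in them against 54.2 CPM in the other macrophage-like cells of the control, and 148 against 56.2 CPM in the mutant (log2 ratios 0.99, 0.44 to 1.52, and 1.41, 0.88 to 1.91). *Fos* had 280 against 132 CPM and 326 against 132 CPM, and *Jun* 599 against 293 CPM and 563 against 277 CPM. *Junb* had 197 against 193 CPM and 170 against 222 CPM, with intervals spanning 0. *Atf3* went opposite ways, with log2 ratios of 1.66 (control, 0.66 to 2.72) and -0.68 (mutant, -1.58 to -0.00068). In the mutant these cells held 17 *Atf3* UMIs in all, so the single macrophage-like cell with 39 lay among the others. The mutant ratio was not computed without that cell, so its direction is uncertain. The cells were chosen by a raw UMI count, which favours deep cells. The part of depth or of cell type in these differences was not tested.

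Each pool held embryos of both sexes, so cells were also split into female (an *Xist* UMI and no Y-linked UMI) and male (the reverse). Of 5468 kept control cells, 1964 were female and 1138 male, and of 6300 kept mutant cells, 1559 and 1764. The many other cells had UMIs of neither kind or of both and were left out of the split. As 1 UMI decides, shallow cells were called less readily, so the values below cover only part of the cells. The immediate early sum had 446 CPM in control female, 296 CPM in control male, 326 CPM in mutant female and 372 CPM in mutant male cells. Mutant over control, the log2 ratio was -0.45 (-0.49 to -0.41) in female and 0.33 (0.28 to 0.38) in male cells, so the 2 sexes went opposite ways. Male over female, it was -0.59 (control) and 0.19 (mutant). Within classes, male over female was below 0 in 5 of 5 classes of the control, by the interval in 4, whereas in the mutant it was above 0 in 3, by the interval in 1, and below 0 by the interval in 1. In macrophage-like cells the levels were 1498 CPM (female) and 709 CPM (male) in the control, and 1160 and 1007 CPM in the mutant. In retinal progenitor-like cells they were 319 and 221 CPM, and 206 and 235 CPM. Of the 5 classes with enough cells, the female ratio was below 0 in 5, by the interval in 4, and the male ratio was above 0 in 4, by the interval in 2. The heat shock sum gave 0.16 (-0.02 to 0.34) in female and -0.58 (-0.81 to -0.36) in male cells. As each pool held 3 samples, sex and the sample of origin cannot be told apart, and their part in the genotype ratios was not tested.

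**Figure D4:**
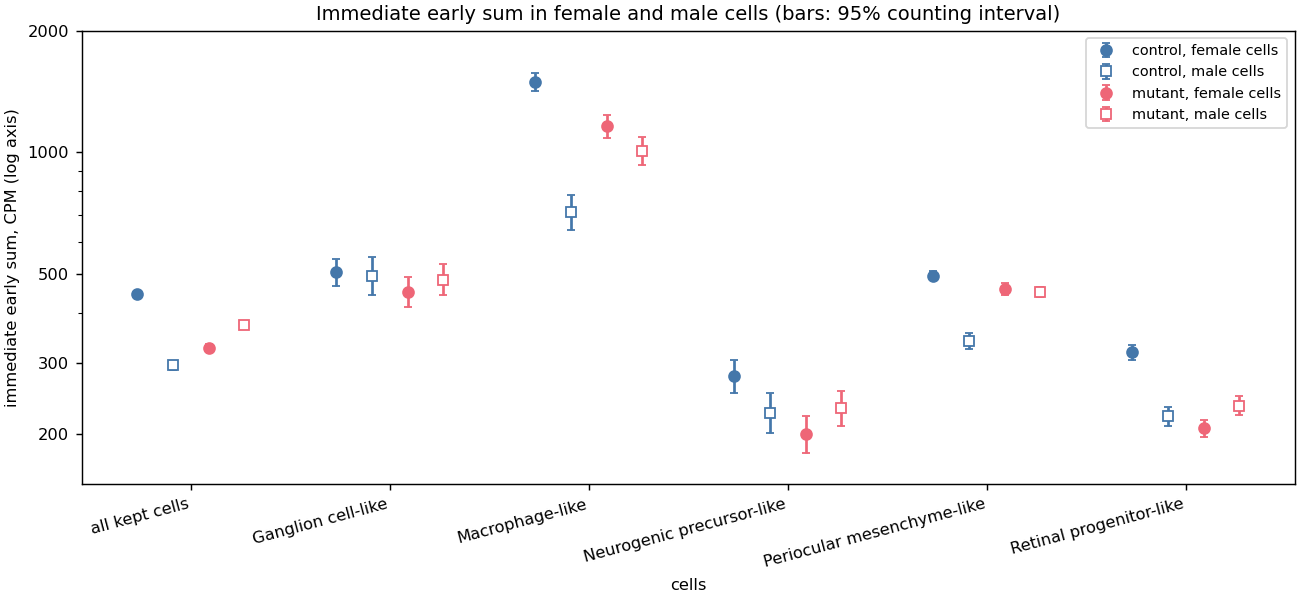
Immediate early sum in CPM (log axis) in female (filled circles) and male (open squares) cells of the control and mutant library, for all kept cells and 5 classes, with 95% counting intervals. Control female cells lie above control male cells over all cells (446 against 296 CPM), and mutant cells lie in between (326 and 372 CPM).

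Other genes of these pathways were read from lists by the same rule of 1.5 fold. Over all kept cells, 7 other AP-1 and Egr genes were measured, of which 1 was higher in the mutant and 6 were lower (median log2 ratio -0.16). *Jund*, the most abundant by UMIs, had 632 and 611 CPM (-0.05), and *Egr2*, with 22 and 9 UMIs, was past the fold. Of 24 other immediate early genes 0 were higher and 24 lower (median -0.17), against 2840 higher and 13240 lower of all 16080 genes (median -0.13). *Nr4a1* (108 and 82 UMIs, -0.65) and *Klf2* (15.5 and 9.98 CPM, -0.64) were past the fold, while *Mcl1* (92.3 and 91.7 CPM), *Rhob* (62.4 and 54.1 CPM) and *Btg2* (38.1 and 37.4 CPM) were not. Of 13 other heat shock genes 2 were higher and 11 lower (median -0.11), none past the fold: the chaperone genes *Hsp90ab1* had 3295 and 3149 CPM, *Hspa8* 1635 and 1544 CPM and *Hsp90aa1* 818 and 761 CPM. Of 12 genes of the endoplasmic reticulum and integrated stress responses 2 were higher and 10 lower (median -0.14), and *Trib3* (117 and 216 UMIs, 0.63) was past the fold. The chaperones of the endoplasmic reticulum *Hsp90b1* (507 and 457 CPM) and *Hspa5* (383 and 362 CPM) were not. Of 9 upstream regulators 0 were higher and 9 lower (median -0.22), none past the fold, among them the kinase gene *Mapk3* (44.2 and 39.1 CPM).

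In RPE-like cells fewer genes could be measured, and of all genes 6.6% were past 1.5 fold higher and 10.7% past it lower. Of 11 other immediate early genes 8 were higher and 3 lower (median 0.32, against -0.04 over all 9701 genes, of which 4456 were higher). *Btg2*, an antiproliferative gene, was past 1.5 fold higher with 18 and 34 UMIs (1.35, 0.52 to 2.30), as was *Ctgf* with 12 and 14 UMIs (0.68, -0.53 to 1.94). *Trib1* with 57 and 24 UMIs (-0.74, -1.53 to -0.06) and *Ier3* with 23 and 7 UMIs (-1.11, -2.71 to 0.02) were past it lower. Of 2 other AP-1 and Egr genes, *Batf3* was past the fold higher (13 and 15 UMIs, 0.66, -0.49 to 1.87) and *Jund* was not (314 and 284 CPM). Of 12 other heat shock genes 6 were higher and 6 lower (median 0.03), none past the fold, with *Hspa8* at 1932 and 2060 CPM. Of 9 endoplasmic reticulum and integrated stress genes 6 were higher and 3 lower (median 0.10), *Ddit4* (12 and 18 UMIs, 1.02, -0.08 to 2.24) being past the fold. *Hspa5* had 483 and 631 CPM and *Hsp90b1* 561 and 708 CPM there. Of 9 upstream regulators 2 were higher and 7 lower (median -0.17), with *Elk3* (14 and 6 UMIs, -0.63, -2.42 to 0.72) and *Elk4* (21 and 7 UMIs, -0.99, -2.59 to 0.18), ternary complex factors that act with serum response factor, past the fold lower.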

How the data were processed

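Single cell libraries of e13.5 eye cups were made with a 3' kit of the 10X Genomics platform. The authors deposited UMI counts per gene and barcode for called cells, without normalization, for 1 control and 1 mutant library, each of 3 pooled samples. The submitters' processing notes name Cell Ranger 7.1.0, Seurat 4.1.1 and mm10. The headers of the matrices name another version of the counting software, and whether intronic reads were counted is not given in the sources used here.

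Following the study's methods, a barcode was kept with at least 200 genes and at most 15% mitochondrial UMIs. The study also removed cells with counts over 2000 as doublets and integrated all its ages. Here that count limit was not applied, and only the e13.5 libraries were integrated. Runs with at most 2000 and at most 20000 UMIs per cell are given among the alternatives below. Scrublet (scanpy 1.11.5, expected doublet rate 5%) was run on each library separately and marked 51 control (0.924%) and 74 mutant (1.16%) barcodes, which were removed. Cells of both libraries were integrated in Seurat 5.3.0 under R 4.3.3 with 2000 variable features, 30 principal components and a resolution of 0.8. The 10 genes and the listed stress genes were kept out of the variable features. A cluster was named from its markers if at least 3 were 2 fold higher than in other cells and found in over 5% of its cells, unless its leading genes or a low UMI count went against the name.

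Counts were summed per class and library and given as CPM with exact Poisson intervals at a level of 95%. A log2 ratio added 1 UMI to each sum and has an exact conditional binomial interval, in scipy 1.17.1 with numpy 2.4.6. Shares of cells have exact Clopper-Pearson intervals, and were compared after thinning cells to 3000 UMIs. A count of 0 was given an upper limit of 3 counts. Genes entered a comparison with at least 20 UMIs over both libraries, and a call was a ratio of at least 1.5 fold, with no test. Class patterns were compared as log2(CPM + 10) over genes with at least 500 UMIs. Intervals and limits cover counting error only. The calculation was checked on simulated Poisson counts of 16080 genes over all kept cells. Of genes changed 2 fold in either direction, 96.4% were past 1.5 fold, and 95.7% of intervals held the true ratio. For RPE-like cells, with 9701 genes, 92.5% of genes raised and 88.9% of genes lowered 2 fold were past 1.5 fold, and 96.2% of intervals held. The intervals assume the same Poisson model. The check therefore says nothing on intervals of genes whose UMIs gather in few cells, as those of *Fos* and *Hspa1a* did.

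The named genes were the 10 members, the 3 genes of each list with the most UMIs, the listed genes past 1.5 fold, and the 5 genes nearest in class pattern. A gene that this rule names is not reported here. The members, lists and rules were chosen with earlier results of these data known. The thresholds for naming clusters, the description of the cluster with shared barcodes, the genes named in it, the minimum of 10 heat shock UMIs per cell and the removal of top cells were chosen after the data had been seen. Promoter sequences came from RefSeq and gene models from GENCODE, both on GRCm38. The other ages of the study were not analysed here.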

Additional observations from a re-analysis of the deposited data

Results flagged for a closer look

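The immediate early sum over all kept cells had a log2 ratio of mutant over control of -0.45 in female cells and 0.33 in male cells. It was singled out because the sexes went opposite ways, and the difference itself was not tested, since each library is 1 pool.

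In RPE-like cells the same sum had a ratio of -0.83 in cells with at most 5% mitochondrial UMIs and 1.35 in cells above it. These also have opposite signs, and the difference was not tested. The cells above 5% include the mutant RPE-like cell with the most immediate early UMIs.

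Surface ectoderm-like cells (-1.09) and RPE-like cells (0.52) had the lowest and the highest ratio of the immediate early sum among the named classes, in opposite directions. The difference was not tested. Surface ectoderm-like cells were shallower in the mutant library, with a median of 1671 UMIs against 3241.5 in the control.

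In the unnamed cluster whose barcodes recur in both libraries, *Fos* had 3315 CPM in the control and 3705 CPM in the mutant library, far above every named class, although these cells entered no comparison between classes.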

How the results depend on the processing

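No paired analysis was possible because there is 1 library per genotype and the labels carry no shared replicate numbers. Depth limits most statements on RPE-like cells, where 6 of the 10 genes had 3 or fewer UMIs in at least 1 library. For each value that moved, the cause was not tested.

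The immediate early sum over all kept cells (-0.11) was -0.27 at a mitochondrial limit of 5%, -0.018 with at most 20000 UMIs per cell, 0.047 with at most 2000, 0.027 as a difference of mean ln values per cell, -0.0092 without mitochondrial, haemoglobin and ribosomal protein genes in the total, -0.45 in female cells, 0.33 in male cells and -0.23 without *Jun* and *Ier2*. The heat shock sum (0.12) was -0.066 with at most 20000 UMIs, -0.40 with at most 2000, -0.32 without the 1% of cells richest in the members and -0.58 in male cells. In RPE-like cells the immediate early sum (0.52) was -0.83 at the 5% limit, -0.25 with at most 2000 UMIs, -0.10 in male cells and 0.87 without *Jun* and *Ier2*. It could not be computed in female cells, of which a library had under 20. Periocular mesenchyme-like over retinal progenitor-like cells kept its sign under every alternative run. The control ratio was 0.65 at the 5% limit, 0.63 in female and 0.62 in male cells, 0.95 and 0.86 at resolutions of 0.4 and 1.6, 0.92 with classes given per cell and 0.34 without *Jun* and *Ier2*, and the mutant ratio was 0.90, 0.94 in male cells, 1.198 at a resolution of 0.4 and 0.79 without these genes.

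The number of the 10 genes higher in the mutant (4) was 2 at the 5% limit, 2 with at most 20000 UMIs and 7 in male cells. The number of classes with a higher immediate early sum (4 of 14) was 2 of 12 at the 5% limit, 2 of 7 with at most 2000 UMIs and 1 of 7 in female cells. Genes past the fold in the other lists fell from 4 to 1 at 2 fold, and in RPE-like cells from 8 to 3 at 2 fold and 2 at a minimum of 50 UMIs. Cells with 4 or more immediate early genes (0.821% and 0.600%) were 0.361% and 0.242% at 1500 UMIs and 2.46% and 2.30% at 6000.

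By gene over all kept cells, the sign turned with at most 2000 UMIs for *Fos* (0.16), *Jun* (-0.044), *Junb* (0.12), *Dusp1* (0.64) and *Hspa1a* (-0.43), and in male cells for *Junb* (0.15), *Egr1* (0.22), *Ier2* (0.10), *Dusp1* (0.058) and *Hspa1a* (-0.70). It turned for *Jun* at the 5% limit (-0.14) and in female cells (-0.26), for *Hspa1a* with at most 20000 UMIs (-0.087) and without the richest 1% (-0.23), and in mean ln values for *Dusp1* (0.0023) and *Hspa1a* (-0.0029). In RPE-like cells *Fos* and *Jun* turned at the 5% limit (-0.48 each), *Fos* in male cells (-1.77) and *Jun* with at most 2000 UMIs (-0.14). Leaving out the cluster or all barcodes shared between the libraries, leaving out the top cells, and keeping doublets turned the sign of no ratio whose interval excluded 0.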

Other observations

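Classes built from several clusters were not uniform. Clusters of periocular mesenchyme-like cells had an immediate early sum from 296 to 730 CPM in control and from 341 to 751 CPM in mutant cells. Of the clusters of retinal progenitor-like cells, the largest had 281 CPM in control and 229.7 CPM in mutant cells. Another, with medians of 4877 and 4720 UMIs per cell, had 74.6 and 91.7 CPM. *Fos* had 1 UMI in the 393 control cells of the latter. Ganglion cell-like cells likewise fell into a deep cluster (497 and 452 CPM, medians of 17197 and 16091 UMIs) and a shallow one (261 and 305 CPM, medians of 1544 and 1776 UMIs). These are values of clusters, with no test.

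An unnamed cluster of 136 control and 142 mutant cells, led by *Fmo1*, *Spp1*, *Lypd1* and *Cxcl12*, had an immediate early sum of 682 CPM (645 to 719.8) in control and 501 CPM (470.4 to 533) in mutant cells. *Junb* had 115 and 44 UMIs there (60.4 and 21.8 CPM), *Egr1* 131 and 72 UMIs (68.9 and 35.7 CPM) and *Fos* 59 and 27 UMIs (31.0 and 13.4 CPM). *Hspa1b* had 42 and 8 UMIs (22.1 and 3.97 CPM), while *Jun* had 252 CPM in both. An unnamed cluster led by *Aldh1a1*, *Dapl1* and *Ckb*, with 376 control and 427 mutant cells, had 76.8 and 81.2 CPM and 0 *Fos* UMIs in both libraries.

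Barcodes left out for over 15% mitochondrial UMIs had an immediate early sum of 158 CPM (131 to 189) in the control and 144 CPM (115 to 179.8) in the mutant, against 353 and 327 CPM in kept cells.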
